A study of Mus musculus with 13 samples.

Results

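*Peg10* and 9 further imprinted growth genes were followed in whole parametrial white adipose tissue (pmWAT) of female mice by bulk RNA-Seq. The genes were chosen by name, namely *Peg10*, *Sgce*, *Peg3*, *Mest*, *H19*, *Igf2*, *Dlk1*, *Plagl1*, *Grb10* and *Cdkn1c*, and *Sgce* was included as the neighbor of *Peg10*. All 10 were found by Ensembl identifier among the 33618 genes of the count table, and 9 passed the filter on low counts. The choice was made with the difference between the genotypes already known, so the values below describe that difference and do not test it independently. The genotypes were *Lmna* fl/fl without Cre (7 libraries) and *Lmna* iADKO, which carries the same floxed alleles with a tamoxifen-inducible *Adipoq*-CreERT2 transgene (6 libraries), so loss of lamin A/C was directed to adipocytes. Mice of both genotypes were 12–14 weeks old when they received tamoxifen (50 mg/kg i.p. for 5 days), and tissue was taken 2 weeks posttamoxifen. The transgene is present only in iADKO mice, and its effect and that of the deletion cannot be told apart.

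Imprinted genes are expressed from the copy inherited from 1 parent, through DNA methylation marks set in the egg or sperm. Many of them act on fetal and placental growth, and several are coexpressed in growing tissue and decline after birth, a group often called the imprinted gene network. In adipose tissue, *Dlk1* (preadipocyte factor 1) is best known as a restraint on adipocyte differentiation, *Mest* as a gene whose expression accompanies fat expansion, and *Grb10* as an adaptor that dampens insulin and IGF1 receptor signaling. Total read counts do not show which parental copy a transcript came from.

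*Peg10* is derived from a retrotransposon, and its 2 overlapping reading frames, related to viral Gag and Pol, are joined when ribosomes slip back by 1 base. In the GENCODE vM39 transcript read here, the slippery heptamer, shown in capitals below because it defines the gene, occurred once, at transcript base 1377. The first frame, counted from its ATG at base 271, held 376 codons and ended 5 codons after the heptamer. The frame entered after slippage ran for 635 codons before its stop. The reads counted here do not separate the products.
Peg10 frameshift site: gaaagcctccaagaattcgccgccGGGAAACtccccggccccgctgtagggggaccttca

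*Plagl1* (also called Zac1) encodes a zinc finger transcription factor that binds GC-rich DNA, with GGGGCCCC among its known motifs, and it is placed upstream of other network genes. This motif reads the same on both strands, and it was searched in the RefSeq promoter windows of 250 bases before to 50 bases after each start. Of the genes, 6 had 12 such windows, while *Peg10*, *Sgce*, *H19* and *Cdkn1c* had none and were not searched. Not all of the 12 are separate, since *Mest* windows that begin at chr6:30737800 and chr6:30737803 overlap. Of the 12, 1 window, that of *Peg3*, held the motif, compared with 1.08% of all 32851 windows. The match is at position -201 relative to the annotated start, in chr7:6730587-6730646 (GRCm38.p6, minus strand). It is printed with the motif in capitals because it was the only match in the 12 windows. A match is a description of the sequence and not a binding site.
Peg3 promoter: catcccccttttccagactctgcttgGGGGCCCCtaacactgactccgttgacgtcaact

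Between 18854223 and 19776491 reads were counted on genes in each library. In edgeR's quasi-likelihood test, 5104 of 16753 genes (30.5%) passed an adjusted p of 0.05, with 14.1% of the genes tested higher and 16.3% lower in iADKO, and 6.64% had no overlap between the genotypes. *Lmna*, the targeted gene, was at 74.7 CPM (reads scaled to the normalized library size) in the lowest, 83.5 in the median and 98.5 in the highest fl/fl library, and at 80.1, 96.8 and 109.0 in iADKO. The log2 fold change, iADKO over fl/fl, was 0.19 (SE 0.079, edgeR adjusted p = 0.0785), and the exact two-sided permutation test of log2 CPM gave p = 0.049. Without fl/fl 1 or iADKO 6, the edgeR adjusted p was 0.0411 or 0.0208. *Lmna* was therefore not lower in the libraries labelled iADKO, and genotypes are given below as the labels state them. The counts are per gene and do not separate the floxed exons from the rest.

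Cell type markers also moved between the genotypes. All 8 adipocyte markers were lower in iADKO, with summed levels of 8500–14900 CPM in fl/fl and 5350–8540 CPM in iADKO. Of 8 macrophage markers, 7 were higher, with sums of 1810–5290 and 3110–5370 CPM, and 3 of 7 lymphocyte markers were higher (34.3–58.8 and 49.1–80.8 CPM). Of the endothelial markers, 2 of 6 were lower, 1 of 8 progenitor markers was higher, and 4 of 6 proliferation markers were higher. Of 6 smooth muscle and mural markers, 1 was lower and none was higher by edgeR, while 4 were higher at an unadjusted p under 0.05 and 1 by DESeq2, and the median log2 fold change of the list was 0.58. By edgeR none of 6 mesothelial, 5 skeletal muscle and 4 tested ovary and reproductive tract markers passed, while at an unadjusted p under 0.05 these counts were 2, 0 and 1, and by DESeq2 1, 0 and 1. The ovary markers *Amh*, *Foxl2* and *Pax8* averaged under 0.2 CPM in both genotypes and were not tested. The 4 tested were detected. In fl/fl, *Star*, *Inha*, *Ovgp1* and *Cyp11a1* averaged 22.5, 2.63, 0.89 and 0.869 CPM. In iADKO they averaged 25.3, 3.51, 1.1 and 0.797 CPM. The part of cell composition in the results below was not tested, and in bulk tissue fewer cells of a type and less RNA per cell cannot be told apart.

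*Peg10* was the member with the widest difference. In fl/fl, its lowest, median and highest values were 3.54, 6.35 and 10.9 CPM, and in iADKO they were 29.5, 38.4 and 47.2 CPM. All 6 iADKO libraries lay above all 7 fl/fl libraries, and the lowest iADKO value was well clear of the highest fl/fl value. In raw reads, fl/fl libraries held 70–199 and iADKO libraries 617–990. Mean levels of 7.42 ± 2.99 CPM in fl/fl (SD, n = 7) and 38.3 ± 7.57 CPM in iADKO (SD, n = 6) gave a 5.18-fold difference with a 95% interval of 3.58 to 7.48. On the log2 scale the change was 2.37 (SE 0.25, edgeR adjusted p = 0.000162), the 18th highest among the 16753 genes tested. Leaving out each library in turn gave log2 fold changes between 2.25 and 2.49.

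**Figure D1:**
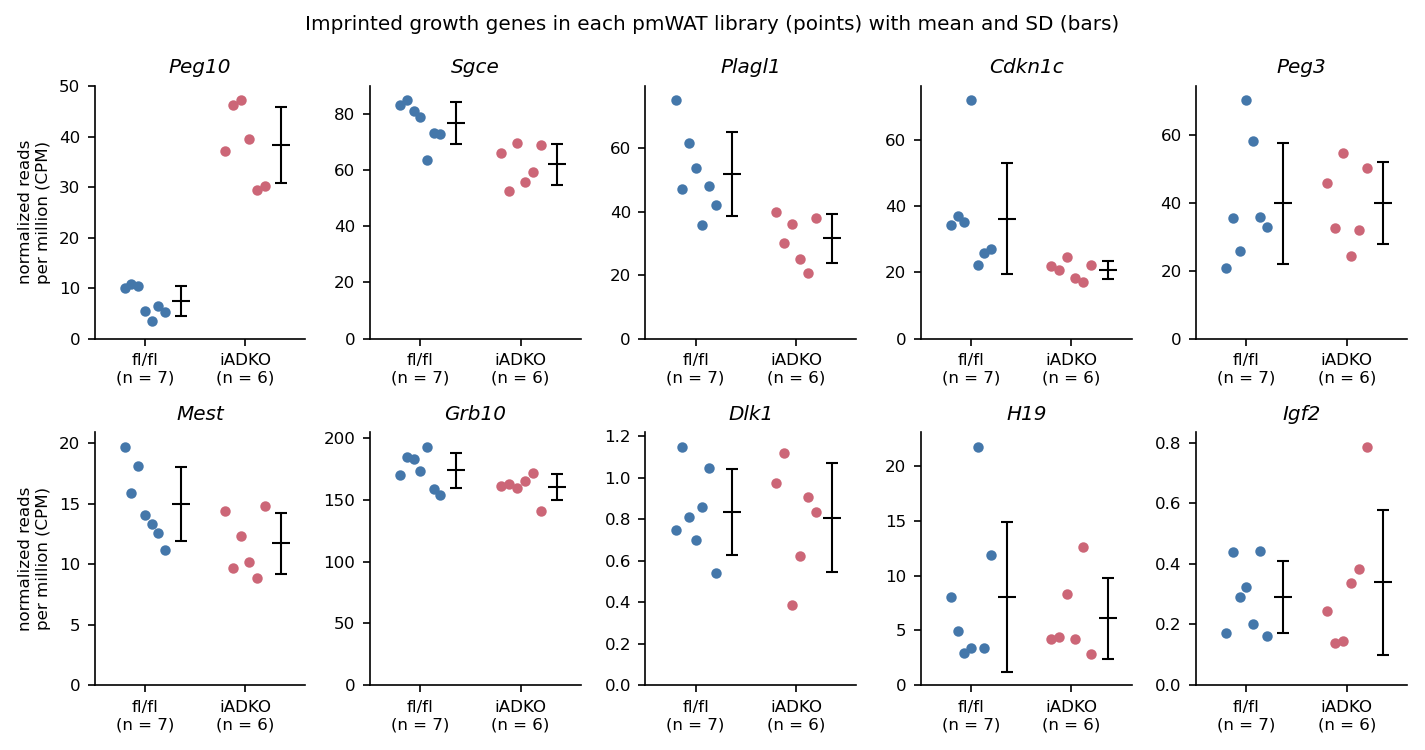
CPM (normalized reads, linear axes from 0, vertical) of the 10 genes in each fl/fl (n = 7, blue) and iADKO (n = 6, red) library, with each point 1 library and black bars the mean and SD. *Peg10* is the gene whose genotypes do not overlap, *Plagl1*, *Cdkn1c* and *Sgce* are shifted down with some overlap, and the high fl/fl point of *Cdkn1c* is at 72.0 CPM.

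The fl/fl libraries also differed among themselves in *Peg10*. The numbers in the library names fall into 4 series, which the labels do not describe as batches. In series 3, the 3 fl/fl libraries were at 10.1–10.9 CPM, whereas the 4 in series 1 and 2 were at 3.54–6.35 CPM. Within series 2, which holds 2 libraries of each genotype, the difference in mean log2 CPM was 2.96, and within series 3 it was 1.97. With the series as a block in the fit, the log2 fold change was 2.42 (edgeR adjusted p = 0.00254). The direction was therefore the same in both series that hold both genotypes, while series 1 holds only fl/fl and series 4 only iADKO.

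**Figure D2:**
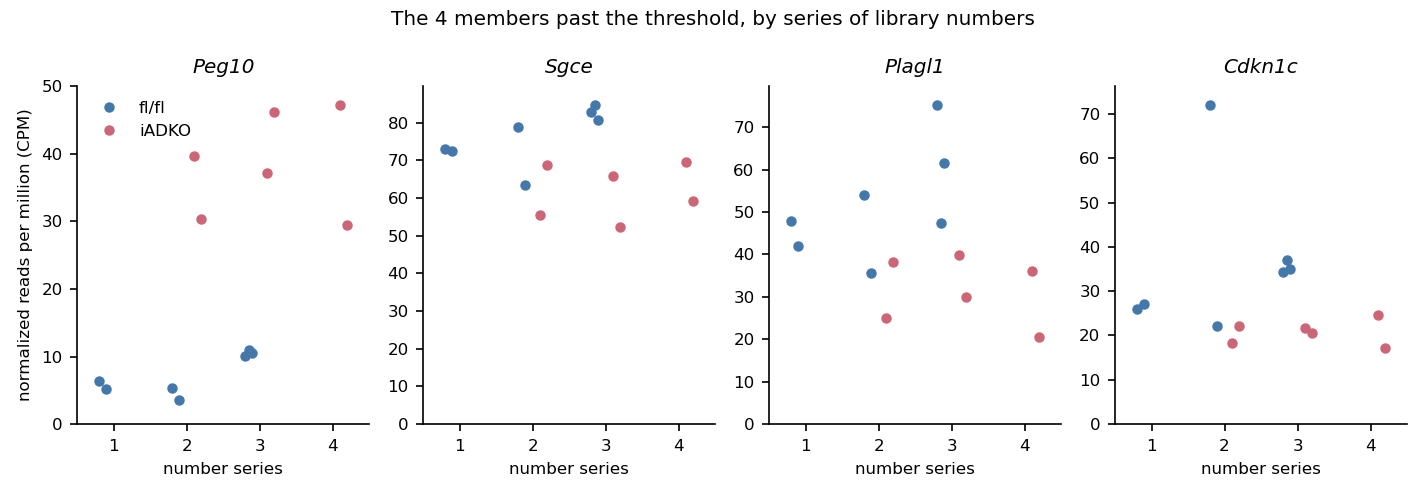
CPM (linear axes from 0, vertical) of *Peg10*, *Sgce*, *Plagl1* and *Cdkn1c* by series of library numbers (horizontal), with each point 1 library, fl/fl in blue and iADKO in red. In *Peg10* the red points are above the blue ones in series 2 and 3, and the blue points of series 3 sit at 10.1–10.9 CPM.

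*Sgce*, which encodes ε-sarcoglycan of the dystrophin-associated complex, is read in the opposite direction from *Peg10*. On GRCm39 *Peg10* lies at chr6:4747306-4760517 on the plus strand and *Sgce* at chr6:4672057-4747207 on the minus strand, and their annotated starts are 99 bases apart. Both are expressed from the paternal copy and share a control region methylated on the maternal copy. *Sgce* was at 63.4, 78.9 and 84.7 CPM in the lowest, median and highest fl/fl library and at 52.3, 62.6 and 69.6 CPM in iADKO. All 6 iADKO libraries were below the fl/fl median, and 3 were below every fl/fl library. Its log2 fold change was -0.31 (SE 0.082, edgeR adjusted p = 0.0126), or 19.2% lower. With the series as a block it was -0.35 (edgeR adjusted p = 0.0524), past the threshold no longer.

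Since the 2 genes share a start region, the *Peg10* reads per *Sgce* read were computed in each library, a ratio that does not depend on how libraries are scaled. The lowest, median and highest ratios were 0.0559, 0.0869 and 0.129 in fl/fl and 0.44, 0.621 and 0.882 in iADKO. The ranges do not overlap, and *Sgce* still had more reads than *Peg10* in every library. After the genotype means were subtracted, log2 CPM of *Peg10* and *Sgce* had a Pearson r of 0.50 (permutation p = 0.0746, adjusted p = 0.136) and a Spearman rho of 0.505 (permutation p = 0.0667, adjusted p = 0.105) over 13 libraries. Within fl/fl r was 0.902 and within iADKO -0.223, groups of 7 and 6 libraries. Without the 2 libraries farthest from the median of *Peg10*, r was 0.151. The r over 13 libraries thus depended on those libraries and joins genotypes whose own r had opposite signs.

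**Figure D3:**
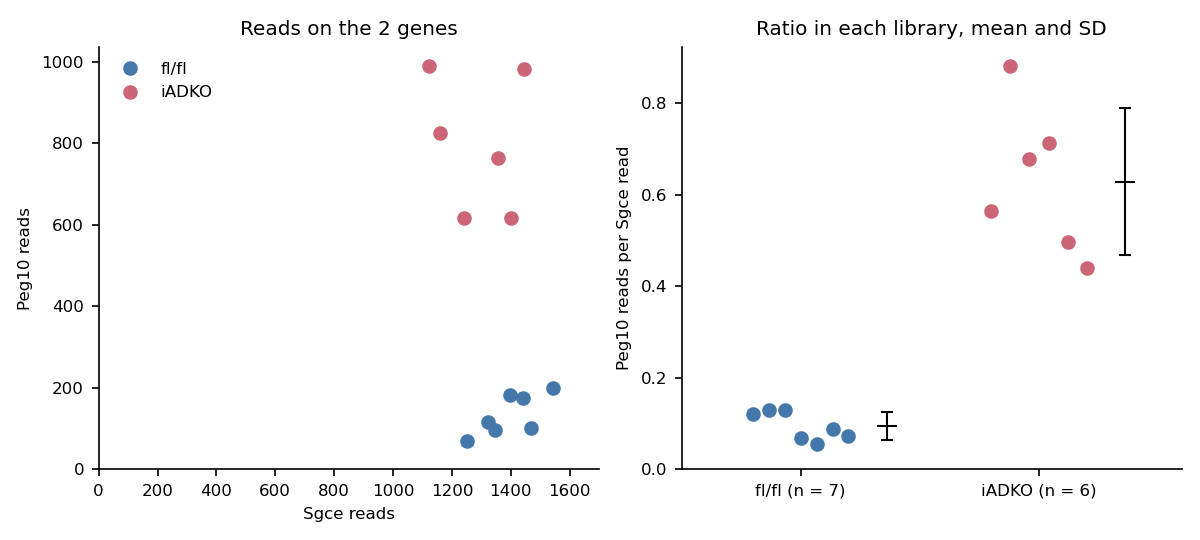
Left, raw reads on *Peg10* (vertical) against raw reads on *Sgce* (horizontal) in each library; right, *Peg10* reads per *Sgce* read with mean and SD (bars), fl/fl in blue (n = 7) and iADKO in red (n = 6). The *Sgce* reads of the genotypes overlap, and the ratio is at most 0.129 in fl/fl and at least 0.44 in iADKO.

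Genes around *Peg10* were read from the same fit. Within 1 Mb of the *Peg10* start, 53 genes are annotated and 14 were tested. Of the 13 other than *Peg10*, 1 was higher and 4 were lower, where 14.1% and 16.3% of all genes tested were. The other 8 did not pass, and log2 fold changes of the 13 ran from -0.72 to 0.60. *Asb4*, an ankyrin repeat protein of ubiquitin ligase complexes, was the 1 gene higher, at 1.52 CPM in fl/fl and 2.30 CPM in iADKO (log2 fold change 0.60, SE 0.21, edgeR adjusted p = 0.0435). *Ppp1r9a*, which encodes the actin-binding protein neurabin and is the nearest gene tested on the far side of *Peg10* from *Sgce*, was lower (-0.56, SE 0.08, edgeR adjusted p = 0.000426). *Pon3*, a paraoxonase, was lower as well (-0.65, SE 0.091, edgeR adjusted p = 0.000405), as was *Gm44250* (-0.72, edgeR adjusted p = 0.000168). *Gm44250* is a gene model not annotated as protein-coding, on the same strand as *Pon3*. Its span ends at base 5220486 of chr6, and that of *Pon3* begins at 5220758. Whether the 2 are separate transcripts was not tested. *Casd1*, on the other side of *Peg10*, had a log2 fold change of -0.10 (edgeR adjusted p = 0.109). In the list of 10 named cluster neighbors, 8 were tested, all of them among the 13 above. Of the 8, 1 was higher and 2 were lower (37.5% called against 30.5% of all genes). Their median log2 fold change was -0.11, compared with 0.03 over all genes tested.

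**Figure D4:**
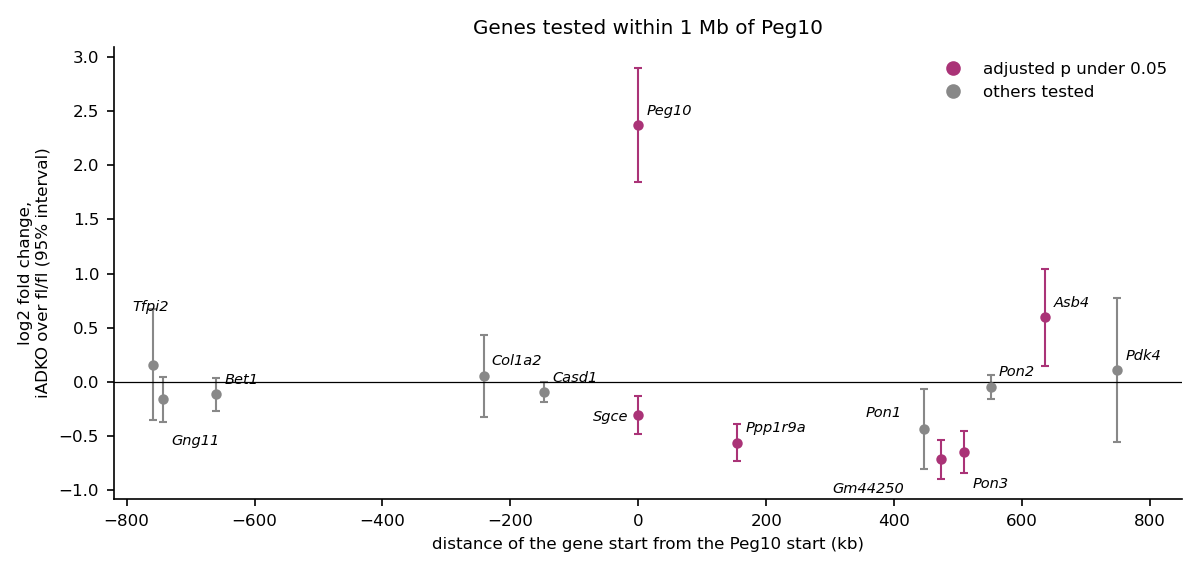
Log2 fold change, iADKO over fl/fl (vertical, with 95% interval), of the 14 genes tested within 1 Mb of *Peg10* against the distance of their start from the *Peg10* start (kb, horizontal), with genes past an adjusted p of 0.05 in purple and the others in gray. *Peg10* stands at 2.37, and the other 13 genes lie between -0.72 and 0.60.

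Of the 9 members tested, 1 was higher and 3 were lower, and 8 had a log2 fold change below 0. With 14.1% and 16.3% of all genes called in the same directions and the members chosen with these values known, nothing is read from those counts. The median log2 fold change of the 9 was -0.31. The lowest values were those of *Cdkn1c* and *Plagl1*.

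*Plagl1* was at 35.7, 48.0 and 75.2 CPM in the lowest, median and highest fl/fl library and at 20.6, 33.1 and 39.8 CPM in iADKO. All 6 iADKO values were below the fl/fl median and 3 were below every fl/fl value, so the ranges overlap in part. The log2 fold change was -0.71 (SE 0.19, edgeR adjusted p = 0.012), and the iADKO level was 0.61-fold that of fl/fl. With the series as a block it was -0.67 (edgeR adjusted p = 0.0679). Within series 2 and 3 the differences in mean log2 CPM were -0.50 and -0.80.

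*Cdkn1c* encodes p57, an inhibitor of cyclin-dependent kinases expressed from the maternal copy. Its lowest, median and highest values were 22.2, 34.4 and 72.0 CPM in fl/fl and 17.1, 21.2 and 24.7 CPM in iADKO. Of 6 iADKO libraries, 5 lay below every fl/fl library, and the 72.0 CPM of fl/fl 4 was far above its group. The log2 fold change was -0.80 (SE 0.24, edgeR adjusted p = 0.0216). Without fl/fl 4 it was -0.55 (edgeR adjusted p = 0.00988), and without iADKO 5 it was -0.75 (edgeR adjusted p = 0.0503). Keeping genes of low counts in the test also ended the call (-0.82, edgeR adjusted p = 0.0606), as did the series as a block (-0.96, edgeR adjusted p = 0.0509). Exons of the lncRNA *Gm44732* on the opposite strand cover part of the *Cdkn1c* exons, and whether the counting used the strand is not given in the sources used here.

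The other maternally expressed growth inhibitor, *Grb10*, had the highest counts of the 10 genes. It was at 154.3, 172.9 and 193.2 CPM in the lowest, median and highest fl/fl library and at 140.6, 161.7 and 172.5 CPM in iADKO. The ranges overlap widely, though all 6 iADKO values were below the fl/fl median. The fit gave a log2 fold change of -0.12 (SE 0.063, 95% interval -0.25 to 0.02, edgeR adjusted p = 0.17).

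*Mest* encodes a hydrolase-like protein of the endoplasmic reticulum. It was at 11.2, 14.1 and 19.7 CPM in the lowest, median and highest fl/fl library and at 8.89, 11.3 and 14.8 CPM in iADKO. In iADKO, 3 libraries were below every fl/fl library and the other 3 fell within the fl/fl range. Its log2 fold change was -0.36 (SE 0.15, edgeR adjusted p = 0.0916). Without iADKO 6 it was -0.43 (edgeR adjusted p = 0.043). *Copg2*, a coatomer gene on the opposite strand whose exons overlap 47.7% of the *Mest* exons, was lower (log2 fold change -0.45, edgeR adjusted p = 0.00184), and without a stated strand setting reads of the 2 genes cannot be told apart there.

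*Peg3*, a paternally expressed zinc finger gene, had nearly equal means, with 39.9 ± 17.9 CPM in fl/fl (SD, n = 7) and 40.0 ± 12.0 CPM in iADKO (SD, n = 6). Its lowest, median and highest values were 20.8, 35.5 and 70.3 CPM in fl/fl and 24.3, 39.2 and 54.8 CPM in iADKO. The fl/fl range covers that of iADKO. The log2 fold change was 0.00 with a 95% interval of -0.62 to 0.62, so a change of up to 1.54-fold higher or 0.649-fold is within it. Its direction differed between series, at -0.87 within series 2 and 0.53 within series 3. It was the member whose promoter window, printed above, held the GGGGCCCC motif.

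*Dlk1*, with EGF repeats like those of Notch ligands, had a low level, which averaged 0.836 ± 0.209 CPM in fl/fl (SD, n = 7) and 0.807 ± 0.264 CPM in iADKO (SD, n = 6). Its log2 fold change was -0.05 (95% interval -0.57 to 0.47, edgeR adjusted p = 0.893). No library of either genotype rose above 1.15 CPM.

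*H19*, a maternally expressed noncoding RNA and host of a microRNA, was at 2.95, 4.94 and 21.8 CPM in the lowest, median and highest fl/fl library and at 2.85, 4.30 and 12.6 CPM in iADKO. The highest values were in fl/fl 5 and iADKO 5, and the ranges overlap almost wholly. The log2 fold change was -0.41 (95% interval -1.53 to 0.72, edgeR adjusted p = 0.577), and without fl/fl 5 it was 0.08 (edgeR adjusted p = 0.899). *Igf2*, the fetal growth factor next to *H19*, had 3 to 16 reads in a library and was not tested. It averaged 0.290 CPM in fl/fl and 0.339 CPM in iADKO, and 58.4% of its exon bases overlap those of *Gm49394*, annotated on the same strand.

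Levels of different genes were compared as CPM per kilobase of exon, with the exons of all annotated transcripts of a gene merged. In fl/fl, the order from high to low was *Grb10* (17.0 ± 1.37, SD, n = 7), *Cdkn1c* (16.8 ± 7.75), *Plagl1* (6.07 ± 1.54), *Sgce* (5.61 ± 0.545), *Peg3* (2.92 ± 1.31), *H19* (2.83 ± 2.41), *Mest* (1.86 ± 0.38), *Peg10* (1.11 ± 0.449), *Dlk1* (0.139 ± 0.035) and *Igf2* (0.047 ± 0.019). Between neighbors in that order, the library ranges were separate only for *Cdkn1c* and *Plagl1*, for *Peg10* and *Dlk1*, and for *Dlk1* and *Igf2*. In iADKO, *Peg10* at 5.75 ± 1.14 CPM per kilobase (SD, n = 6) was 3rd in the order, above *Sgce* (4.53 ± 0.529), with overlapping ranges. *Peg10* thus went from 8th to 3rd place among the 10 genes in this measure. Its iADKO range (4.42–7.08) also overlapped that of *Plagl1* (2.41–4.66), so its place above these genes is not separated. The means of *Sgce* and *Plagl1* (3.70 in iADKO) were lower than in fl/fl. The order depends on the merged exon lengths, which are 6667 bases for *Peg10* and 13664 for *Sgce*. In reads, *Sgce* was above *Peg10* in every library, and the annotation used for counting is not given.

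Outside the 10 genes, 62 other genes imprinted in some mouse tissue were listed and 50 were tested. Of these, 5 were higher and 10 were lower, which is 30.0% called against 30.5% of all genes. Their median log2 fold change was 0.00, compared with 0.03 over all genes tested. Whether they are imprinted in adipose tissue was not tested. The list shares genes with the *Peg10* neighbors above, among them *Asb4*, *Ppp1r9a* and *Pon3*, which are counted in both places. The count of genes higher was 3 without fl/fl 1, 3 without fl/fl 3 and 9 without fl/fl 5. Over all genes tested, 1769, 1861 and 3319 were higher in those fits, compared with 2367 with all libraries. *Ascl2*, a transcription factor of the placental lineage, had the widest change of those called, from 0.428 to 0.967 CPM (log2 fold change 1.16, SE 0.23, edgeR adjusted p = 0.0023). *Snrpn*, which encodes a splicing protein, was lower (-0.77, edgeR adjusted p = 0.00827), as was the transporter gene *Slc22a18* near *Cdkn1c* (-0.76, edgeR adjusted p = 0.00136). *Tspan32*, a tetraspanin of blood cells, was higher (0.68, edgeR adjusted p = 0.00244), and *Pon3* completes the 5 with the widest changes. *Peg10* lies above all 50 in the plot of imprinted genes by log2 fold change.

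**Figure D5:**
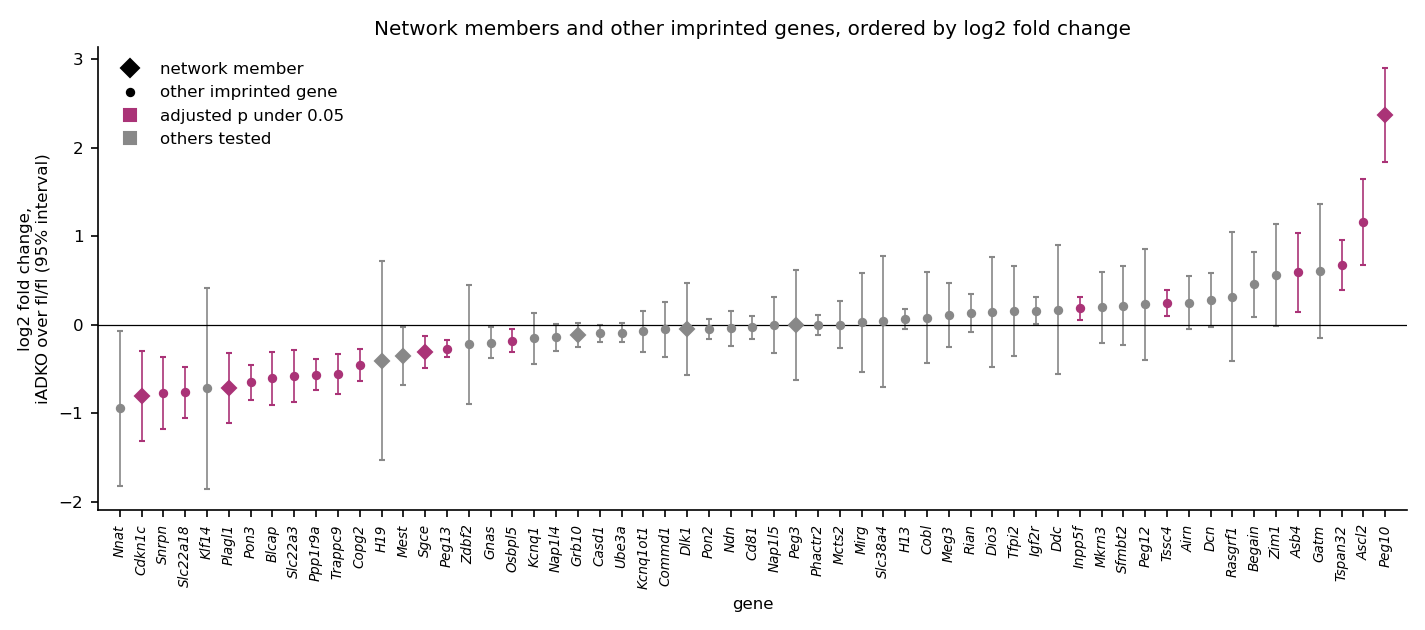
Log2 fold change, iADKO over fl/fl (vertical, with 95% interval), of the 9 members tested (diamonds) and 50 other imprinted genes (circles), ordered along the horizontal axis, with genes past an adjusted p of 0.05 in purple and the others in gray. *Peg10* is at the right end at 2.37, *Ascl2* follows at 1.16, and *Cdkn1c* and *Plagl1* are toward the left end at -0.80 and -0.71.

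Genes linked to single members were read in the same way. Around *Cdkn1c*, 13 of 14 listed CDK inhibitors and G1 cyclins were tested, 1 was higher and 3 were lower, which is 30.8% called against 30.5% of all genes. The related inhibitor *Cdkn1a* (p21) went the opposite way to *Cdkn1c*, from 25.6 to 117.0 CPM (log2 fold change 2.19, SE 0.25, edgeR adjusted p = 0.000256), with no overlap between genotypes. *Cdkn2c* (-0.66), *Ccnd2* (-0.57) and *Ccnd3* (-0.26) were lower, with edgeR adjusted p of 0.00122, 0.00857 and 0.023.

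For *Igf2*, *H19* and *Grb10*, 17 of 22 genes of the IGF axis were tested, 2 were higher and 3 were lower (29.4% called against 30.5% of all genes), and the median log2 fold change was 0.15. The insulin receptor gene *Insr* (-0.59, edgeR adjusted p = 0.000168), its adaptor *Irs1* (-0.54, edgeR adjusted p = 0.0198) and *Stc2*, an inhibitor of a protease that releases IGF (-0.78, edgeR adjusted p = 0.00588), were lower. *Igf2bp2*, an RNA-binding protein gene (0.75, edgeR adjusted p = 0.00232), and *Grb14*, an adaptor related to *Grb10* (0.56, edgeR adjusted p = 0.0433), were higher.

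For *Dlk1*, 12 of 13 Notch genes were tested, none was higher by edgeR or DESeq2 (1 at an unadjusted p under 0.05) and 3 were lower, namely *Notch4* (-0.64, edgeR adjusted p = 0.00367), *Dll4* (-0.64, edgeR adjusted p = 0.00514) and *Heyl* (-0.54, edgeR adjusted p = 0.0343). The share called was 25.0%, all lower, where 30.5% of all genes were called and 16.3% were lower. In the same libraries 2 of 6 endothelial markers were lower, the summed level of the 6 overlapped between the genotypes at 697–947 CPM in fl/fl and 685–831 CPM in iADKO, and the part of endothelial cells was not tested.

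For *Sgce*, 12 of 13 genes of the dystrophin-glycoprotein complex were tested. Of these, 6 were lower and none was higher by edgeR (also at an unadjusted p under 0.05) or DESeq2. The share called was 50.0%, all lower, where 30.5% of all genes were called and 16.3% were lower. The 5 widest were *Sgcd* (-0.90), *Sntb1* (-0.81), *Utrn* (-0.57), *Sspn* (-0.48) and *Sgcb* (-0.34), which encode sarcoglycans, a syntrophin, utrophin and sarcospan, with edgeR adjusted p between 0.000321 and 0.00501. Adipocyte markers were lower in the same libraries (8 of 8), and the part of adipocyte content was not tested. For *Peg10*, 11 of 17 genes derived from related retroelements were tested. Of these, 2 were higher and none was lower by edgeR or DESeq2 (1 at an unadjusted p under 0.05). The share called was 18.2%, all higher, where 30.5% of all genes were called and 14.1% were higher. *Arc*, a neuronal gene whose protein forms Gag-like capsids (1.02, edgeR adjusted p = 0.00267), and *Rtl5* (0.48, edgeR adjusted p = 0.00556) were those 2, at 2.29 and 14.2 CPM in iADKO.

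The genes that varied most like *Peg10* were sought over 13854 genes and 13 libraries, after the genotype means were subtracted. They were *Opa3* (r = 0.965), *Fgd5* (0.952), *Cdc42ep4* (0.948), *Ehd1* (0.944) and *Lbp* (0.941), given as a description of these libraries. Their own log2 fold changes between the genotypes were -0.33 to -0.12, against 2.37 for *Peg10*. None of the other 8 members tested came close, with r from -0.56 for *Peg3* to 0.56 for *Plagl1*.

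In all, 5 pairs, including *Peg10* and *Sgce* above, were compared across the 13 libraries in this way, and none passed after adjustment over the 5. *Plagl1* and *Cdkn1c* had an r of 0.505 (permutation p = 0.0799, adjusted p = 0.136) and a rho of 0.582 (permutation p = 0.0402, adjusted p = 0.105), with 0.559 without the 2 farthest libraries. *Igf2* and *H19* had an r of -0.486 and a rho of -0.505, with permutation p of 0.0818 and 0.0837, adjusted to 0.136 and 0.105, on 3 to 16 *Igf2* reads a library. *Dlk1* and *Meg3*, its neighbor expressed from the other parental copy, had an r of 0.465 and a rho of 0.566, with permutation p of 0.153 and 0.0611, adjusted to 0.191 and 0.105. *Mest* and *Dlk1* had an r of 0.0215 and a rho of -0.011, with permutation p of 0.948 and 0.979, and the same values after adjustment.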

How the data were processed

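Bulk RNA-Seq libraries of pmWAT from 7 fl/fl and 6 iADKO female mice were analyzed, grouped by their labels. Raw, unnormalized counts for each gene were deposited by the authors, who also deposited log2 values made with DESeq2's regularized log (rlog). Strand-specific mRNA libraries were aligned by the authors with STAR 2.7.11a to mm39, while the counting tool and annotation are not given in the sources used here. With R 4.3.3, genes were kept by filterByExpr, normalized by TMM and compared with edgeR 4.0.16 (robust quasi-likelihood test, Benjamini-Hochberg adjustment over all 16753 genes, threshold 0.05). TMM factors were 0.892–1.02 in fl/fl and 1.05–1.1 in iADKO. CPM are TMM-normalized, and log2 CPM used a prior count of 2. Coordinates are from GENCODE vM39 on GRCm39, which held 33184 of the 33618 identifiers, and promoter windows are from RefSeq (GRCm38.p6). Pairs of genes were tested with 100000 permutations. Alternatives were DESeq2 1.42.0 (size factors, Wald test), no filter, at least 10 counts in every library, the replicate number or the library-number series as a block, limma 3.58.1 on rlog values, and each library left out. The edgeR script was tested on simulated data. Chi-square values between libraries of a genotype were at least 8.56 per degree of freedom, so none was a copy of another. Replicates are separate labelled mice with the same batch label. The members and lists were chosen with earlier results of these data known. The genes named are *Lmna*, the 10 members, in each list up to 5 called genes with the largest absolute change, the 5 most like *Peg10*, and, chosen after their values were seen, *Gm44250*, *Casd1*, *Copg2*, *Gm44732*, *Gm49394* and 7 ovary markers. *Meg3* is named for its pair with *Dlk1*.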

Additional observations from a re-analysis of the deposited data

Results flagged for a closer look

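Of 22 groups of libraries examined, 1 for each genotype of each member and *Lmna*, 1 had a library far from the others. *Cdkn1c* in fl/fl 4 was at 72.0 CPM, and its gap to the nearest fl/fl library was 0.702 of the whole fl/fl range, above the 0.568 that Dixon's test allows for 7 libraries. Chance flags about 1 in 20 such groups. In the same library *Peg3* was also the highest of its genotype at 70.3 CPM, whereas *Plagl1* at 53.9 CPM was within its range.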

How the results depend on the processing

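*Peg10* was higher and past the threshold under every alternative with a test, with log2 fold changes from 1.67 (limma on rlog values) to 2.49, and 2.96 within series 2. With the number series as a block, no member was called lower by edgeR (0 compared with 3, and 5 at an unadjusted p under 0.05) and 2 other imprinted genes were higher, compared with 5, and the genes called over all went from 2367 higher and 2737 lower to 784 and 1202. With no filter on low counts, 2 other imprinted genes were higher, and 1623 genes were higher over all. Leaving out each library gave 2 to 4 members lower and 3 to 9 other imprinted genes higher, or 11 without fl/fl 5 and iADKO 6 together, an alternative chosen after seeing the data. Over all genes, leaving out each library gave 1769 to 3319 higher and 2216 to 3285 lower. Without fl/fl 5 and iADKO 6 together, 3282 were higher and 3910 lower. *Lmna* had log2 fold changes of 0.155 to 0.24 when 1 library was left out, and 0.19 (adjusted p = 0.0344) without fl/fl 5 and iADKO 6. The same replicate numbers occur in both genotypes, but residuals of same-numbered libraries had r of -0.0265 to 0.217, so the numbers were not taken to pair the libraries. With the replicate block and fl/fl replicate 7 left out, 1 member was higher and 4 were lower, since *Mest* passed (-0.425, adjusted p = 0.0305), and *Peg10* was at 2.37, *Sgce* at -0.32, *Plagl1* at -0.76, *Cdkn1c* at -0.76 and *Lmna* at 0.185. Members near 0 changed sign. *Peg3* was at 0.00437 with at least 10 counts in every library, 0.0341 with the replicate block, 0.026 with limma on rlog values, 0.0123 without fl/fl 5 and iADKO 6, and at -0.112 to 0.194 when 1 library was left out. *Dlk1* was at 0.0774 with the series block and -0.165 to 0.0929 without 1 library, and *H19* at -0.749 to 0.0811 without 1 library and 0.199 without fl/fl 5 and iADKO 6. The cause was not tested. The 5 pairs stayed on the same side with rlog values, with r of 0.465, -0.452, 0.492, 0.498 and 0.0131. *Igf2* and *Dlk1* had the fewest reads of the members and are limited most. How reads on the *Igf2* exons shared with *Gm49394* were counted is not given.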
